A study of Mus musculus with 3 samples.

Results

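The 9 genes described here make, bind, break down and answer to retinoic acid in the soft palate of the mouse embryo. They were taken by symbol from the 32285 genes counted: *Aldh1a1*, *Aldh1a2* and *Aldh1a3* for synthesis, *Dhrs3* for the reduction of retinal, *Cyp26b1* for degradation, *Crabp1* and *Crabp2* for binding, and *Rarb* and *Rarg* as receptors. Another 40 genes of the pathway were followed beside them. Retinoic acid is made from vitamin A (retinol), which is first oxidized to retinal. The retinaldehyde dehydrogenases of the Aldh1a family then oxidize retinal to retinoic acid, while Dhrs3 turns retinal back into retinol and Cyp26 enzymes break retinoic acid down, so that its level in a tissue is set by where these enzymes are made. In the cell, retinoic acid is held by Crabp1 and Crabp2, and it acts through the retinoic acid receptors, which pair with retinoid X receptors on paired half-sites in DNA. In the palate, too much and too little retinoic acid are both known to cause clefts.

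Single cells of the soft palate, dissected at E14.5 as the posterior part of the palate, were measured in 2 control libraries and 1 mutant library. The mutant, labelled *Osr2-Cre;Alk5fl/fl*, lacks the TGF-β type I receptor gene *Tgfbr1* (older symbol *Alk5*) where Osr2-Cre is active, which is the palatal mesenchyme and not the muscle lineage, and the controls carried *Tgfbr1* fl/fl or fl/+, all on C57BL/6. Embryos were used without regard to sex, how many were pooled is not given in the sources used here, and nothing says that the controls came from separate tissue, so the gap between them may be technical. With 1 mutant library no test between genotypes was possible, and no p-value or standard error is given. Each level is the number of unique molecular identifiers (UMIs, 1 per captured transcript) of a gene over all cells of one type from one library, per 1000000 UMIs of those cells (CPM), and values in a series follow the order control 1, control 2, mutant. Ranges in brackets are exact 95% intervals that cover counting error only.

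After filtering, 2069, 3697 and 7547 cells were kept, with medians of 8203, 5218 and 5038 UMIs. Cells were sorted into types by marker genes, none of them a gene described here, and 12 types with at least 20 cells in every library were compared. The perimysial gate (*Hic1*, *Ebf2*), for the connective tissue around the forming muscles, held 259, 201 and 280 cells, and all 6 markers kept out of the gate were higher there than in the other mesenchyme of each library. For 1 of them, *Tbx15*, the mutant difference was small, at 6.64 CPM in the gate against 5.72 CPM in the other mesenchyme. The gate held *Tbx15* at 39.4 and 47.9 CPM in the controls, so its cells may differ in make-up between genotypes. The remaining palatal mesenchyme was divided into midline-gated, *Tfap2b*/*Eya4*-gated, *Scx*-gated (a tendon gene), osteogenic-gated and other mesenchymal cells. The tendon marker *Tnmd* was at or near 0 in *Scx*-gated cells and the bone gene *Bglap* in osteogenic-gated cells, and the midline and *Tfap2b*/*Eya4* gates had no further marker to check. *Spp1*, another bone gene, was at 97.5, 0 and 2.13 CPM in osteogenic-gated cells and 10.6, 1.92 and 4.27 CPM in the other mesenchyme. *Krt4* was at 21.2, 1.09 and 2.26 CPM in *Krt6a*+ epithelium and 16.6, 13.7 and 6.64 CPM in *Krt6a*- epithelium. In all 3 libraries 3 of 5 osteogenic and 3 of 4 *Krt6a*+ check markers were higher in their gate. In cartilage-gated cells the cartilage genes *Col11a2* (21.6, 38.4 and 336 CPM) and *Hapln1* (60.5, 82.4 and 461 CPM) were highest in the mutant. *Sox9*, also kept out of the gate, differed less, at 359, 242 and 398 CPM. Whether the cartilage gate took the same cells in each library was not tested. Control 1 stood apart from the other libraries, since *Actc1*, a muscle gene, was at 65, 9.25 and 1.84 CPM in palatal mesenchyme and *Tfap2b* at 4.06, 42.6 and 44.9 CPM. Of the barcodes, 18 were shared by the controls, 34 by control 1 and the mutant, and 49 by control 2 and the mutant. *Tgfbr1* was at 56.8, 61.4 and 49.8 CPM in palatal mesenchyme, but 3′ counts need not cover the deleted part, so these levels do not check the genotype.

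The start regions of 7 of the 9 genes were matched in RefSeq (GRCm38.p6). Those of *Rarb*, *Aldh1a2* and *Cyp26b1* are shown as the 250 bases before the start, 5′ to 3′, because these genes stand for response, synthesis and degradation in the results. The *Rarb* sequence (chr14:16575477-16575726, minus strand) belongs to a start inside the gene, which spans 16430839 to 16819156 on chromosome 14. That of *Aldh1a2* is at chr9:71215539-71215788 (plus strand), just before the gene (71215789 to 71296243), and that of *Cyp26b1* at chr6:84593811-84594060 (minus strand), which overlaps the 5′ end of the gene (84571414 to 84593908). Capitals mark a pair of retinoic acid half-sites, a TATA box or a CCAAT box.
Rarb: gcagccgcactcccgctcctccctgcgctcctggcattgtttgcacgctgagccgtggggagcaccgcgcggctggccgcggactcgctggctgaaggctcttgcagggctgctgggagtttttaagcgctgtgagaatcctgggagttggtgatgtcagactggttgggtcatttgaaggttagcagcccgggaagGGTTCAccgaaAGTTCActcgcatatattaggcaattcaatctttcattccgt
Aldh1a2: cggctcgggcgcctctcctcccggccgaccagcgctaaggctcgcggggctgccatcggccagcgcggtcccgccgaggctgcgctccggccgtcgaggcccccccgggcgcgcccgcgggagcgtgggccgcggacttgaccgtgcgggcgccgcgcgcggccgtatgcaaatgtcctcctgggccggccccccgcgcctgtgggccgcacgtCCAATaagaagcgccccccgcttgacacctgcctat
Cyp26b1: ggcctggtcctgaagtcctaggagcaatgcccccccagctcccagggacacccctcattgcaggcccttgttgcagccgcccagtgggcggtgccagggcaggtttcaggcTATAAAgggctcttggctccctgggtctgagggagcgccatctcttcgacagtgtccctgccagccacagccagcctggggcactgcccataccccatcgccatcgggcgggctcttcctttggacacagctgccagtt

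*Rarb* held the direct repeat to which retinoic acid receptors bind, with half-sites 5 bases apart, from 53 to 37 bases before the start. A half-site was AGGTCA, or AGTTCA, or GGTTCA, or GGGTCA, searched on both strands as direct repeats with 5 or 2 bases between them. The 5-base form was found in 29 of 32851 RefSeq promoters (0.0883%) and the 2-base form in 57 (0.174%). Of the 7 genes with a start region, *Rarb* alone held the 5-base form and none held the 2-base form. Among the other pathway genes, the known target *Cyp26a1* held the 5-base form, from 32 to 16 bases before its start. The TATA box (TATAAA) marked in *Cyp26b1* was found in 12.4% of all promoters, and the CCAAT box marked in *Aldh1a2* in 33.8%. A single half-site was found in 38.6%. These are matches of letters, and binding was not measured.

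*Aldh1a2*, the main retinoic acid-making enzyme of the embryo, was highest in perimysial-gated cells in all 3 libraries. Its level there was 76.3 CPM in control 1 (190 UMIs), 97.2 CPM in control 2 (132) and 122 CPM in the mutant (220). In the palatal mesenchyme outside this gate it was 16.1 CPM in control 1 (182 UMIs), 7.23 CPM in control 2 (113) and 16 CPM in the mutant (538). Perimysial-gated cells thus carried 4.74-fold (3.85 to 5.84) the level of the other mesenchyme in control 1, 13.4-fold (10.4 to 17.4) in control 2 and 7.59-fold (6.46 to 8.90) in the mutant, a mean log2 ratio of 3.0 ± 1.06 (SD, n = 2) in the controls and 2.92 in the mutant. The ratios differed between the controls by more than counting error, and all lay above 3-fold. Of 8572 genes, 15 were at least 3-fold higher in perimysial-gated cells in all 3 libraries (0.175%), and *Aldh1a2* was the only one of the 9 genes among them. The others were *Tm4sf1*, *Shisa3*, *Mfap5*, *Ntrk3*, *Crym*, *Nrg1*, *Gpr83*, *Ntm*, *Akap12*, *Ccl11*, *Meox1*, *Ntrk2*, *Npr3* and *Il33*. With each cell thinned to 2000 UMIs, 10.9%, 14.6% and 18.6% of perimysial-gated cells had an *Aldh1a2* UMI, against 0% of macrophages, which should lack it (exact 95% upper bounds of 9.74%, 3.73% and 2.51%). Unthinned, the shares were 33.6%, 26.4% and 36.8% of perimysial-gated cells, whose median depths were 8164, 5731 and 4257 UMIs, and 0%, 0.971% and 0% of macrophages, at 10686, 5901 and 5206 UMIs, and thinning left out 2, 16 and 16 perimysial-gated cells.

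**Figure D1:**
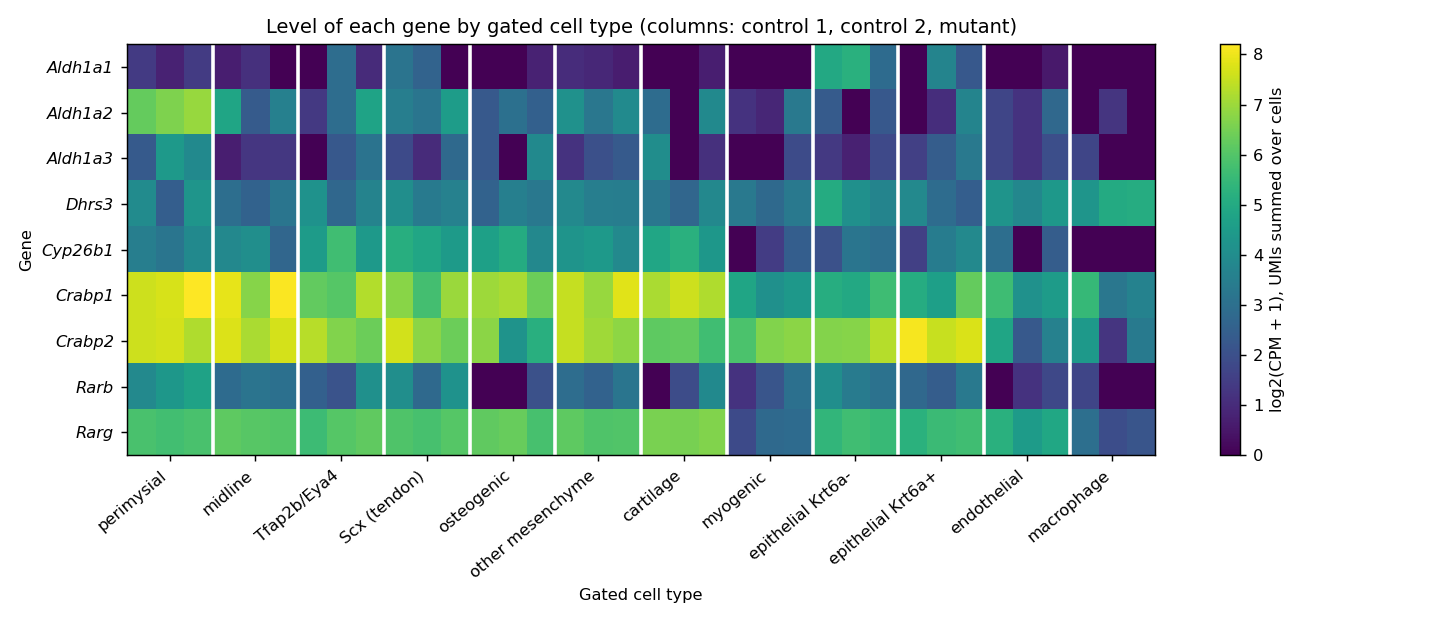
Level of the 9 genes (rows) as log2(CPM + 1) in the 12 gated cell types, with 3 columns per type for control 1, control 2 and the mutant. *Aldh1a2* is brightest in the perimysial columns of all 3 libraries, *Aldh1a1* in *Krt6a*- epithelium, and *Rarg* is spread over the mesenchyme and darkest in the myogenic and macrophage columns.

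Outside the perimysial gate, the libraries differed in where *Aldh1a2* was found. In *Tfap2b*/*Eya4*-gated cells it was 1.56 CPM in control 1 (1 UMI), 6.61 CPM in control 2 (14) and 26.3 CPM in the mutant (159). The mutant level was 16.9-fold (2.99 to 671) that of control 1, which held 1 UMI, and 3.98-fold (2.31 to 7.45) that of control 2, so both intervals lay above 1. In *Scx*-gated cells it was 10.5 CPM in control 1 (4 UMIs), 8.09 CPM in control 2 (8) and 22 CPM in the mutant (110), and the interval against control 1 held 1, at 2.10-fold (0.797 to 7.84), while that against control 2 did not, at 2.72-fold (1.33 to 6.46). In midline-gated cells the controls themselves lay on both sides of the mutant, at 27.5, 4.13 and 10.8 CPM. Perimysial-gated cells supplied 45.6%, 50.6% and 21.6% of all *Aldh1a2* UMIs, and *Tfap2b*/*Eya4*-gated cells 0.240%, 5.36% and 15.6%. These shares also follow the number of cells in each gate, since perimysial-gated cells made up 12.5%, 5.44% and 3.71% of the cells. Fewer cells that express a gene and less of its RNA per cell cannot be told apart in such sums. *Hic1*, a gate marker, was at 56.7, 25 and 18.3 CPM in palatal mesenchyme and *Eya4* at 32.1, 46.4 and 71.7 CPM, so the gates did not take the same share of each library, and the part of this in the results was not tested. Pericyte-gated cells, too few to be compared (20, 9 and 51 cells), held 16, 0 and 45 *Aldh1a2* UMIs among 261435, 188266 and 604100 UMIs. In control 1 and the mutant their level was above that of every compared type except perimysial-gated cells.

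*Cyp26b1*, an enzyme that breaks retinoic acid down, was lower in perimysial-gated cells than in the other mesenchyme of both controls. In perimysial-gated cells it was 10.4 CPM in control 1 (26 UMIs), 8.10 CPM in control 2 (11) and 13.8 CPM in the mutant (25), and in the other palatal mesenchyme 18.7 CPM in control 1 (212 UMIs), 24.1 CPM in control 2 (377) and 15.3 CPM in the mutant (514). The perimysial level was 0.557-fold (0.356 to 0.839) that of the other mesenchyme in control 1 and 0.336-fold (0.166 to 0.607) in control 2, and 0.903-fold (0.579 to 1.35) in the mutant, where the interval held 1. Its higher levels were in *Scx*-gated (34, 28.3 and 21.2 CPM), *Tfap2b*/*Eya4*-gated (21.8, 50.5 and 20.7 CPM), cartilage-gated (28.1, 35.7 and 19.2 CPM) and osteogenic-gated cells (24.6, 32 and 13.3 CPM). In control 1 the intervals of these 4 types overlapped. In control 2 the *Tfap2b*/*Eya4*-gated level lay above the *Scx*-gated one and overlapped the other two, and in the mutant the intervals of the 3 highest types, *Scx*-gated, *Tfap2b*/*Eya4*-gated and cartilage-gated, overlapped. In midline-gated cells the mutant was lower than both controls, at 13.1, 15.6 and 5.60 CPM, or 2.34-fold (1.15 to 4.89) and 2.79-fold (1.55 to 5.34) lower. Epithelial cells held 2.87, 8.83 and 8.90 CPM of *Cyp26b1* and myogenic cells 0, 1.73 and 4.50 CPM. Macrophages held no *Cyp26b1* UMI, and 3 UMIs there would be 6.93, 4.29 and 3.44 CPM. *Cyp26a1*, another degrading enzyme, was higher in perimysial-gated cells than over all palatal mesenchyme of each library, as given below. The levels of *Cyp26b1* are thus not the whole of degradation.

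The UMIs of *Aldh1a2* and *Cyp26b1* were set against each other. *Cyp26a1*, another degrading enzyme, is higher in perimysial-gated cells (given below) and was not counted, so the ratio leaves out part of degradation. There were 7.31 (4.84 to 11.5) *Aldh1a2* UMIs per *Cyp26b1* UMI in perimysial-gated cells of control 1, 12 (6.49 to 24.6) in control 2 and 8.80 (5.81 to 13.9) in the mutant. In *Tfap2b*/*Eya4*-gated cells the same ratio was 0.0714 (0.00169 to 0.469), 0.131 (0.0692 to 0.229) and 1.27 (1.0 to 1.62). With *Cyp26b1* as the only degrading enzyme counted, the perimysial ratio lay above 4 in every library. The *Tfap2b*/*Eya4* ratio was below 1 in both controls and near 1 in the mutant. *Scx*-gated cells went from 0.308 (0.0731 to 0.996) and 0.286 (0.113 to 0.643) in the controls to 1.04 (0.787 to 1.37) in the mutant. In midline-gated cells the ratio was 2.10 (1.22 to 3.71), 0.264 (0.135 to 0.483) and 1.93 (1.0 to 3.88), so the controls lay on opposite sides of 1. Over other mesenchymal cells the mutant ratio, 1.04 (0.855 to 1.26), was close to that of control 1, 0.928 (0.725 to 1.19), and above that of control 2, 0.417 (0.314 to 0.548). The ratio depends on the capture of each transcript and is compared only between types and libraries. Single mesenchymal cells with UMIs of both genes numbered 17, 18 and 81. Among cells with an *Aldh1a2* UMI, 8.17%, 13.3% and 18.1% had a *Cyp26b1* UMI, against 13.8%, 10.7% and 8.18% of the cells without one, so the direction differed between the controls. Cells with an *Aldh1a2* UMI were also deeper, with medians of 9388, 6715 and 7910.5 UMIs against 7913, 5138 and 5076.

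**Figure D2:**
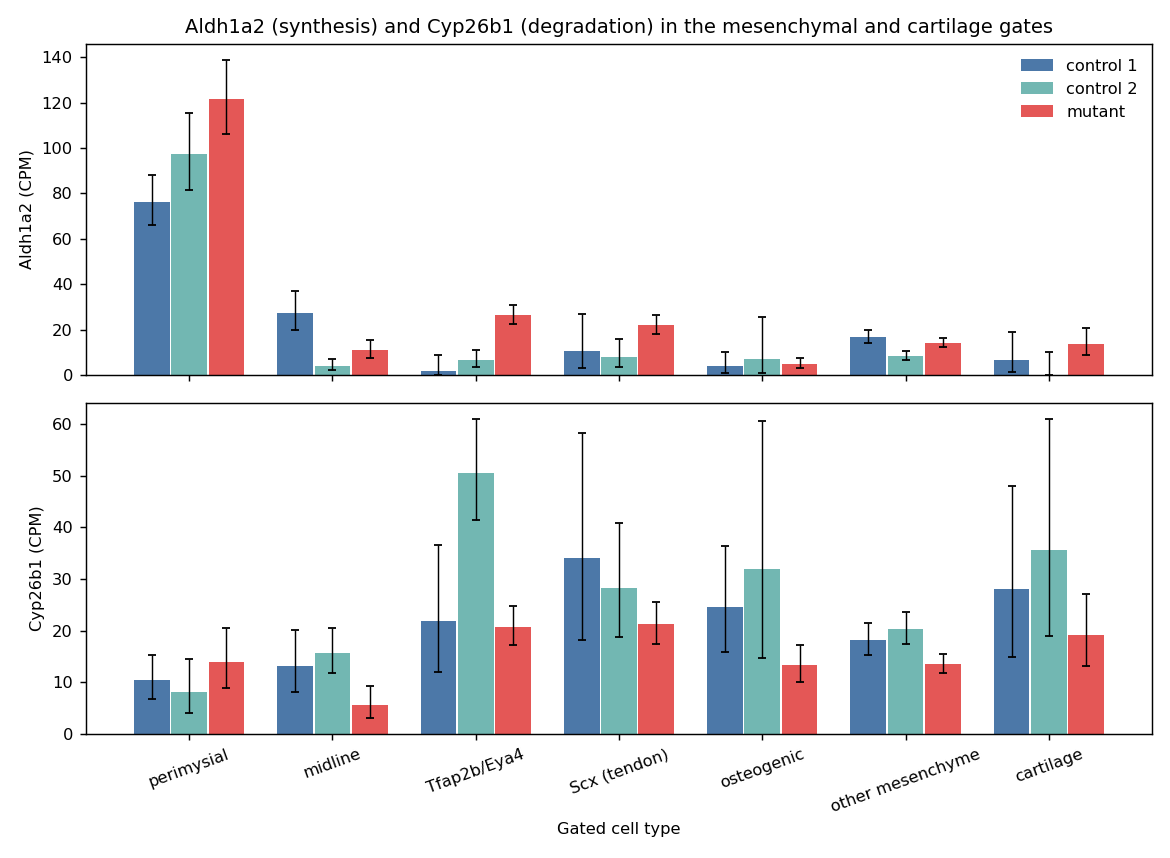
*Aldh1a2* (top) and *Cyp26b1* (bottom) in CPM for the 6 mesenchymal gates and cartilage-gated cells, with bars for control 1, control 2 and the mutant and exact 95% counting intervals. The *Aldh1a2* bars of perimysial-gated cells, 76.3, 97.2 and 122 CPM, stand above all others. *Cyp26b1* is lower there than in the *Scx* and *Tfap2b*/*Eya4* gates of the same library, and *Cyp26a1*, another degrading enzyme, is not drawn.

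Of the other dehydrogenases, *Aldh1a3* was also highest in perimysial-gated cells by the mean of the controls, while *Aldh1a1* was highest in epithelium. *Aldh1a3*, which makes retinoic acid mainly in epithelia and sense organs, was low throughout. It was 4.02 CPM in control 1 (10 UMIs), 20.6 CPM in control 2 (28) and 13.8 CPM in the mutant (25) in perimysial-gated cells, 2.84, 7.85 and 2.29-fold the level of the other palatal mesenchyme. Its leading type differed between the libraries, with 7 UMIs in cartilage-gated cells of control 1, 28 in perimysial-gated cells of control 2 and 59 in osteogenic-gated cells of the mutant. In the mutant the osteogenic-gated level of *Aldh1a3*, 14 CPM, was close to the perimysial-gated one, 13.8 CPM. Over the palatal mesenchyme *Aldh1a3* was 1.88, 4.06 and 6.44 CPM, under the 10 CPM set for genotype comparisons.

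*Aldh1a1* was an epithelial gene here. In *Krt6a*- epithelial cells it was 30.1 CPM in control 1 (58 UMIs), 36.3 CPM in control 2 (53) and 6.32 CPM in the mutant (20), and in palatal mesenchyme 1.16, 1.88 and 0.593 CPM. *Krt6a*- epithelium was its leading type in every library, and it supplied 73.4%, 46.1% and 39.2% of the *Aldh1a1* UMIs while making up 5.70%, 3.68% and 4.54% of the cells. The genes with the most similar pattern over 12 types in both controls were *Foxj1*, *Trp73* and *Ccno*, which are known from multiciliated cells. Cells with a UMI of any of the 3 numbered 40 of 118, 22 of 136 and 25 of 343 *Krt6a*- cells (33.9%, 16.2% and 7.29%), and they held 91.4%, 84.9% and 50.0% of the *Aldh1a1* UMIs of *Krt6a*- epithelium. In these cells *Aldh1a1* was 54.6 CPM (40.9 to 71.5), 99.96 CPM (72.9 to 134) and 28.2 CPM (13.5 to 51.9). In the remaining *Krt6a*- cells it was 5.24, 7.92 and 3.56 CPM, with overlapping intervals. Few cells carried the signal, since 20, 11 and 13 cells had an *Aldh1a1* UMI and 1 cell held 13 of the 53 UMIs of control 2. The 3 genes were chosen from the controls' own data, so the split is a description. A single UMI was enough to count a cell, and the 40, 22 and 25 cells held 232, 87 and 23 *Foxj1* UMIs. The cells set apart in this way need not be alike between libraries. By the same criterion 5.11%, 2.57% and 1.85% of palatal mesenchymal cells had such a UMI.

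**Figure D3:**
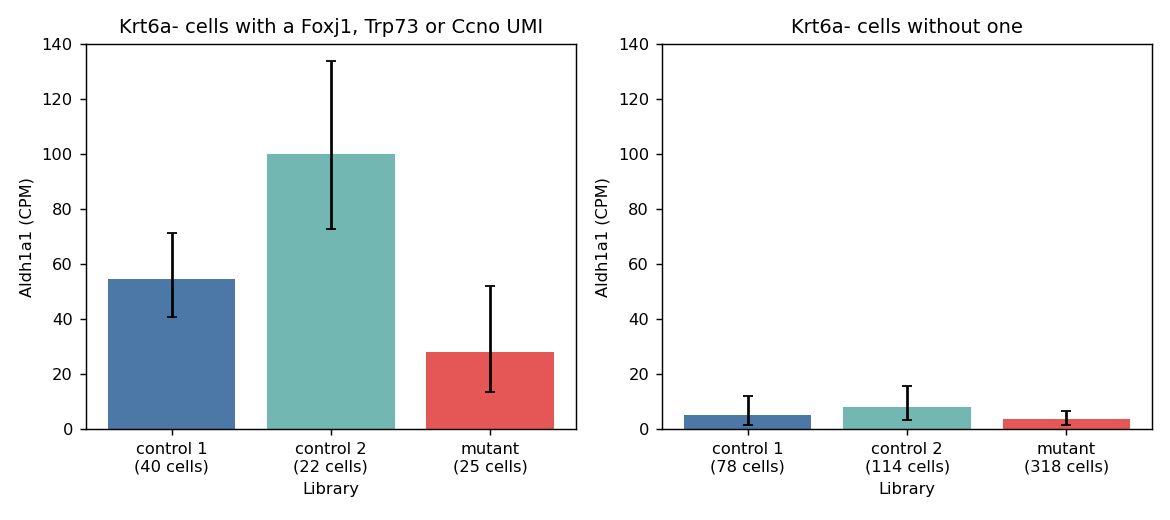
*Aldh1a1* in CPM in *Krt6a*- epithelial cells with (left) and without (right) a UMI of *Foxj1*, *Trp73* or *Ccno*, by library, with exact 95% counting intervals and the number of cells under each bar. The cells with such a UMI sit at 54.6, 99.96 and 28.2 CPM, and the rest at 5.24, 7.92 and 3.56 CPM.

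*Dhrs3*, which returns retinal to retinol, was found in every compared type of every library. It was 18.5 CPM in control 1 (8 UMIs), 31.5 CPM in control 2 (22) and 33.2 CPM in the mutant (29) in macrophages, 32.2, 16.4 and 12 CPM in *Krt6a*- epithelium, 18.1, 12.8 and 19.9 CPM in endothelial-gated cells and 12.5, 8.19 and 10.7 CPM in palatal mesenchyme. Macrophages led in control 2 and the mutant and *Krt6a*- epithelium in control 1, and the intervals of those 2 types overlapped in both controls.

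The binding proteins had the most UMIs of the 9 genes in palatal mesenchyme, on a 3′ count that does not depend on transcript length. *Crabp1* was 176 CPM in control 1 (2435 UMIs), 115 CPM in control 2 (1955) and 189 CPM in the mutant (6704) in palatal mesenchyme, and *Crabp2*, which delivers retinoic acid to the receptors, 181 CPM in control 1 (2495 UMIs), 133 CPM in control 2 (2255) and 101 CPM in the mutant (3584). In perimysial-gated cells *Crabp1* was 191, 209 and 295 CPM and *Crabp2* 192, 205 and 148 CPM. *Crabp1* was 1.10, 1.95 and 1.60-fold the level of the other mesenchyme there, a smaller difference than that of *Aldh1a2*, and *Crabp2* 1.07, 1.62 and 1.5-fold. The other types divided by which of the 2 they carried. Epithelial *Krt6a*+ cells held *Crabp2* at 274, 184 and 212 CPM and *Crabp1* at 32.8, 24 and 76.8 CPM, and myogenic cells held *Crabp2* at 58.3, 99.2 and 108 CPM and *Crabp1* at 27.2, 16.4 and 19.8 CPM. In cartilage-gated cells *Crabp1* was 143, 189 and 149 CPM and *Crabp2* 71.3, 74.1 and 50.9 CPM. In macrophages the levels were 43.9, 8.58 and 11.5 CPM of *Crabp1* and 20.8, 1.43 and 9.16 CPM of *Crabp2*, highest in control 1 for both. In *Tfap2b*/*Eya4*-gated cells *Crabp1* was 74.9, 65.2 and 151 CPM and *Crabp2* 159, 100.1 and 80.7 CPM, so the mutant was above both controls in the first and below both in the second. In *Scx*-gated cells *Crabp1* was 107, 53.6 and 124 CPM and *Crabp2* 199, 108 and 80.8 CPM, with the same order of the mutant and the controls. Other mesenchymal cells held *Crabp1* at 177, 123 and 226 CPM and *Crabp2* at 180.1, 132 and 111 CPM.

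The balance of the 2 binding proteins differed between the mutant and both controls. In palatal mesenchyme there were 0.98 (0.92 to 1.03) *Crabp1* UMIs per *Crabp2* UMI in control 1, 0.87 (0.82 to 0.92) in control 2 and 1.87 (1.80 to 1.95) in the mutant. In perimysial-gated cells the ratios were 1.0 (0.88 to 1.14), 1.02 (0.86 to 1.21) and 1.99 (1.71 to 2.31). The mutant ratio lay above both controls in 5 of 6 mesenchymal gates, at 1.39 to 2.04 against 0.47 to 1.10 in the controls, and its interval overlapped that of control 1 in the midline gate. The exception was the osteogenic gate (1.16, 8.0 and 2.34), where control 2 rested on 5 *Crabp2* UMIs. On the log2 scale the mutant differed from the mean of the controls in palatal mesenchyme by 1.02, and by 0.94 to 1.11 over 8 other settings. A ratio within a library does not depend on its scaling, but it does not show which of the 2 genes differed. No background over other gene pairs was computed, and the ratio was chosen after the data were seen, so it is a description. The epithelial markers *Krt15* (55.4, 51 and 17.1 CPM) and *Perp* (20.3, 29.3 and 9.55 CPM) were lowest in the mutant's palatal mesenchyme. So were *Trp63* (3.77, 7.95 and 3.73 CPM) and *Cdh1* (5.15, 13.0 and 3.93 CPM), while *Dsp* was not (9.93, 26.6 and 10.8 CPM). Epithelium carried more *Crabp2* than *Crabp1*, and the part of its RNA in the ratio and in *Crabp2* was not tested. In *Krt6a*+ epithelium the ratio was 0.12 (0.07 to 0.20), 0.13 (0.08 to 0.20) and 0.36 (0.29 to 0.46), also above both controls. In *Krt6a*- epithelium it was 0.33, 0.29 and 0.32, with overlapping intervals, as in cartilage-gated cells (2.0, 2.56 and 2.92).

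**Figure D4:**
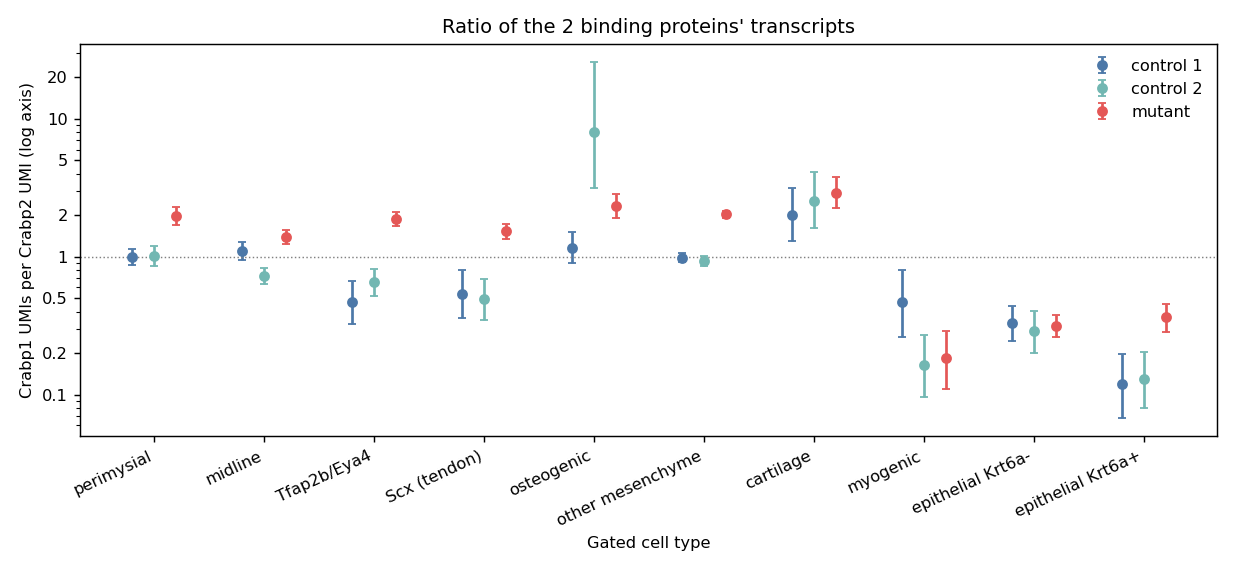
*Crabp1* UMIs per *Crabp2* UMI (log axis) by gated type, with points for control 1, control 2 and the mutant and exact 95% counting intervals. The mutant point lies above both control points in the perimysial, midline, *Tfap2b*/*Eya4*, *Scx*, other mesenchyme and cartilage gates and in *Krt6a*+ epithelium. Its interval overlaps a control's in the midline, cartilage, myogenic and *Krt6a*- gates and lies between the controls in the osteogenic gate.

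Of the receptors, *Rarb*, itself a known target of retinoic acid, was higher in perimysial-gated cells than in the other palatal mesenchyme of each library. In perimysial-gated cells it was 13.7 CPM in control 1 (34 UMIs), 19.1 CPM in control 2 (26) and 25.4 CPM in the mutant (46), which was 2.21-fold (1.42 to 3.37), 3.56-fold (2.20 to 5.58) and 2.49-fold (1.79 to 3.40) the level of the other palatal mesenchyme. All 3 intervals lay above 1. In *Tfap2b*/*Eya4*-gated cells *Rarb* was 4.68 CPM in control 1 (3 UMIs), 3.31 CPM in control 2 (7) and 16.4 CPM in the mutant (99), and in *Scx*-gated cells 15.7, 6.07 and 17.2 CPM. The mutant level in the *Tfap2b*/*Eya4* gate was 3.50-fold (1.16 to 17.3) that of control 1, which held 3 UMIs, and 4.96-fold (2.32 to 12.7) that of control 2. *Krt6a*- epithelium held *Rarb* at 15.6, 9.59 and 7.58 CPM. In osteogenic-gated cells it was at 0 UMIs in both controls, where 3 UMIs would be 2.95 and 10.7 CPM, and at 3.08 CPM (13 UMIs) in the mutant.

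*Rarg* was carried by all mesenchymal gates at similar levels. It was 66.8 CPM in control 1 (922 UMIs), 61.9 CPM in control 2 (1051) and 63.4 CPM in the mutant (2244) in palatal mesenchyme, and its lowest and highest values over the 6 mesenchymal gates and 3 libraries were 48.4 and 78.1 CPM. Cartilage-gated cells led in every library at 92.9, 90.6 and 99.5 CPM, with intervals that overlapped those of the next type in both controls and not in the mutant. In epithelium it was 40.5, 49.2 and 46.5 CPM. Myogenic cells (2.59, 6.04 and 6.31 CPM) and macrophages (6.93, 2.86 and 3.44 CPM) held at most 7 *Rarg* UMIs in a library. Mesenchyme exceeded myogenic cells in *Rarg* by 25.8, 10.2 and 10.1-fold. The forming muscle thus carried *Crabp2* but little of *Rarg*, *Rarb* (1.29, 3.45 and 7.21 CPM) or *Aldh1a2* (1.29, 0.863 and 9.01 CPM). The receptor *Rara* is given below only over all cells, so these levels do not cover every retinoic acid receptor of the muscle.

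In the types not described so far the 9 genes were mostly low, and many values rest on a few UMIs. *Aldh1a2* was 6.48, 0 and 13.8 CPM in cartilage-gated cells, 0, 1.09 and 12 CPM in *Krt6a*+ epithelium and 2.27, 1.28 and 5.82 CPM in endothelial-gated cells, each from 0 to 3 UMIs in a control and 12 to 23 in the mutant. *Rarb* was 0, 2.75 and 13.8 CPM in cartilage-gated cells, where the controls held 0 and 1 UMI and the mutant 23. *Aldh1a3* was 3.94, 0 and 14 CPM in osteogenic-gated cells and 0, 3.78 and 7.78 CPM in *Tfap2b*/*Eya4*-gated cells. The mutant had the most cells in 11 of the 12 types, and more cells give a lower limit of detection. In osteogenic-gated cells the level of 3 UMIs, used in place of a count of 0, was 2.95, 10.7 and 0.711 CPM, and in cartilage-gated cells 6.48, 8.24 and 1.80 CPM. Myogenic cells held 1, 1 and 10 *Aldh1a2* UMIs among 772210, 1158878 and 1109956 UMIs. The mesenchymal gene *Col1a1* was highest in the mutant in myogenic (66, 104 and 178 CPM) and *Krt6a*+ cells (135, 508 and 937 CPM). So it was in endothelial-gated cells (397, 47.4 and 556 CPM), but not in cartilage-gated cells (1722, 1757 and 1650 CPM). The part of detection limits or of mesenchymal RNA in these levels was not tested.

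Between genotypes, a gene was called when the mutant lay outside both controls, by at least 1.5-fold and by more than the controls differed, among genes with a mean of at least 10 CPM. In palatal mesenchyme 6 of the 9 genes could be compared, and *Crabp2* alone was called, lower in the mutant (181, 133 and 101 CPM, log2 ratio -0.61, gap between controls 0.45). By the same rule 4.29% of 8528 genes were lower and 1.62% higher there, so 1 lower gene of 6 is not a result about the group. The call was not kept with TMM factors (-0.48), with cells thinned to 2000 UMIs (-0.32), with the mean over cells (-0.32) or without control 1 (-0.39). TMM factors raised all log2 ratios by 0.14 in palatal mesenchyme and turned 138 higher and 366 lower genes into 248 higher and 203 lower. *Rarg* (log2 ratio -0.02), *Dhrs3* (0.08) and *Aldh1a2* (0.12) differed by less than the controls from each other, and so did *Crabp1* (0.41) and *Cyp26b1* (-0.38). *Rarb*, under the minimum level, was 7.54, 6.48 and 11 CPM, which is 1.46-fold (1.17 to 1.83) and 1.70-fold (1.37 to 2.12) the controls. The median log2 ratio was 0.03 over the 6 genes and -0.07 over all genes tested.

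In perimysial-gated cells 8 genes could be compared and 2 were called, both higher in the mutant. These were *Rarb* (log2 ratio 0.65) and *Cyp26b1* (0.59), where 3.35% of 8567 genes were higher and 8.3% lower. Both rest on under 50 UMIs a library. *Cyp26b1* and *Dhrs3* reached the 10 CPM minimum only through the mutant, where they were higher. With the minimum set on the controls alone, 6 genes could be compared, and *Rarb* was the only one called, where 2.70% of 8626 genes were higher. *Cyp26b1* was 1.32-fold (0.733 to 2.39) the level of control 1 and 1.71-fold (0.810 to 3.84) that of control 2, both intervals holding 1, and its ratio turned to -2.10 with cells thinned to 2000 UMIs and was called in 3 of 8 other settings. The *Rarb* ratio turned to -0.15 in the same setting and was not called without control 1. *Aldh1a2* lay above both controls, at 1.59-fold (1.31 to 1.95) and 1.25-fold (1.0 to 1.57) of their levels (log2 ratio 0.50), and *Crabp1* likewise (0.56), both under the 1.5-fold minimum. Over the 6 genes that passed on the controls alone the median log2 ratio was 0.53, and -0.08 over all genes that did. With TMM factors 420 genes were higher and 541 lower in place of 287 and 711, and *Crabp1* was called as well.

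In the epithelium 5 genes could be compared, with *Aldh1a1* lower and *Crabp1* higher in the mutant. *Aldh1a1* was 23.7 CPM in control 1 (58 UMIs), 26.9 CPM in control 2 (64) and 5.56 CPM in the mutant (25) over all epithelial cells, a log2 ratio of -2.18, and in *Krt6a*- cells it was 4.77-fold (2.83 to 8.37) lower than in control 1 and 5.74-fold (3.38 to 10.1) lower than in control 2. The share of *Krt6a*- cells with a *Foxj1*, *Trp73* or *Ccno* UMI was lowest in the mutant, 33.9%, 16.2% and 7.29%, but median depths fell in the same order (12551, 8487 and 7411 UMIs). With cells thinned to 2000 UMIs, which left out 5, 0 and 8 cells, the shares were 15.0% (9.01 to 23.0), 4.41% (1.64 to 9.36) and 2.99% (1.44 to 5.42), with overlapping intervals for control 2 and the mutant. In macrophages, which should lack these genes, the thinned shares were 0%, 1.03% and 0%, at median depths of 10686, 5901 and 5206 UMIs. Summed over all *Krt6a*- cells, *Foxj1* was at 121 CPM in control 1 (232 UMIs), 59.6 CPM in control 2 (87) and 7.27 CPM in the mutant (23). *Trp73* was at 17.1, 15.8 and 5.37 CPM and *Ccno* at 91.4, 19.2 and 3.79 CPM, so the mutant was lowest for each gene. The part of the share and of these levels in the *Aldh1a1* result was not tested. *Crabp1* was 33.2 CPM in control 1 (81 UMIs), 27.8 CPM in control 2 (66) and 57.4 CPM in the mutant (258) (log2 ratio 0.92), and its ratio turned to -0.26 with cells thinned to 2000 UMIs. The mesenchymal gene *Col1a1* was at 138, 404 and 700.4 CPM in the same epithelial cells, with the mutant highest, and *Crabp1* is abundant in mesenchyme. Of 5 epithelial markers kept out of the gate, *Krt15* (1098, 491 and 320.0 CPM), *Perp* (379.9, 345 and 197 CPM), *Trp63* (76.6, 60.6 and 45.6 CPM) and *Cdh1* (131, 139 and 69.4 CPM) were lowest in the mutant and *Dsp* was not (217, 366 and 229 CPM). Their part in these results was not tested. By the rule 2.83% of 8679 genes were higher and 8.47% lower in the epithelium, and with TMM factors 435 were higher and 464 lower in place of 246 and 735. The median log2 ratio was 0.06 over the 5 genes and -0.07 over all genes tested. With the minimum set on the controls alone, 6 genes could be compared and the same 2 were called. Beside them 2.08% of 8779 genes were higher and 9.85% lower. The medians were then -0.14 over the 6 genes and -0.09 over all genes that passed.

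**Figure D5:**
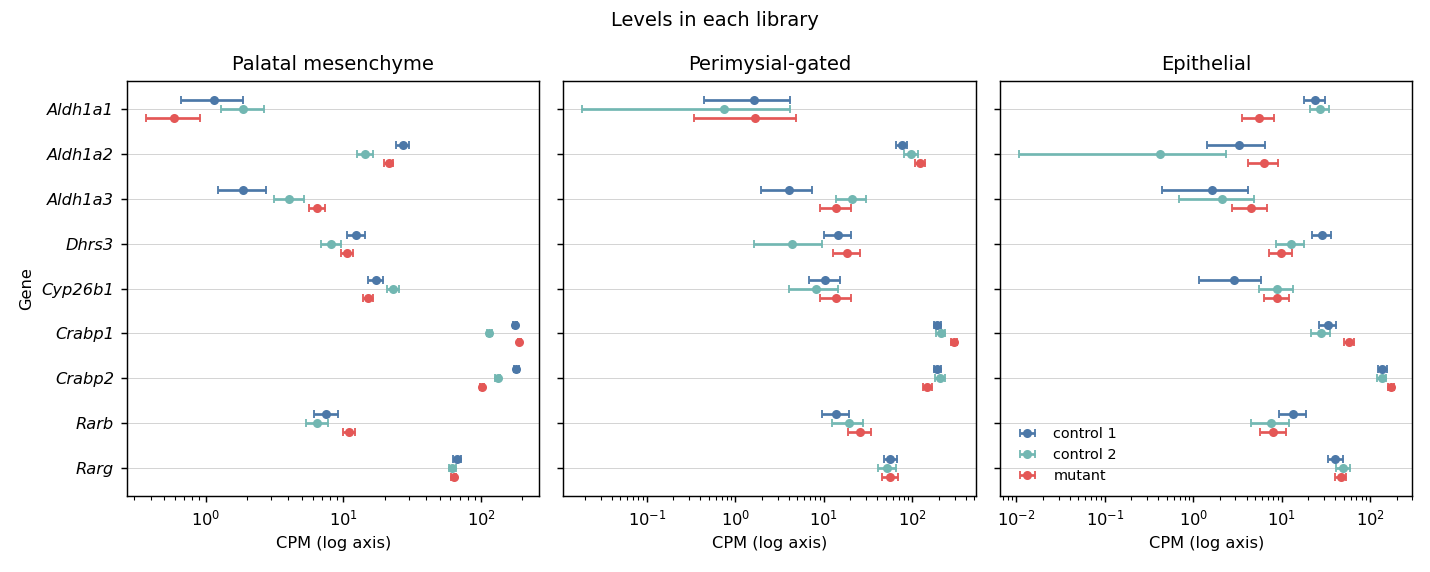
CPM (log axis) of the 9 genes in palatal mesenchyme, perimysial-gated cells and epithelium, with points for control 1, control 2 and the mutant and exact 95% counting intervals. In epithelium the mutant interval of *Aldh1a1* (23.7, 26.9 and 5.56 CPM) lies below those of both controls, and in palatal mesenchyme the *Rarg* points (66.8, 61.9 and 63.4 CPM) lie close together.

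The other 40 genes of the pathway were counted by the same rule. In palatal mesenchyme 20 could be compared, 3 were lower and none higher, where 4.29% of all genes were lower. *Meis1*, a homeobox gene that retinoic acid can induce, was 103, 50.9 and 25.3 CPM (log2 ratio -1.51), though the controls themselves differed by 1.01. *Nr2f2*, a nuclear receptor induced by retinoic acid, was 92.3, 95.8 and 59.6 CPM (-0.66), and *Rdh10*, which oxidizes retinol to retinal and so feeds the Aldh1a enzymes, 20.3, 22 and 13.8 CPM (-0.62). With TMM factors neither *Nr2f2* (-0.52) nor *Rdh10* (-0.48) was called, *Rdh10* was also not called without control 2, and *Meis1* was called in 8 of 8 other settings. In perimysial-gated cells 23 could be compared and 2 were lower, *Meis1* (106, 57.4 and 22.7 CPM) and *Rbp4*, the retinol carrier (37, 69.2 and 13.3 CPM). *Rbp4* was not called with thinned cells or with the mean over cells, and *Meis1* not with 1 more marker in the gate. The 2 lower genes stand beside 8.3% of all genes lower in these cells, a share near the background. In the epithelium 22 could be compared, 1 was higher, and *Rdh14* (28.2, 24 and 14.9 CPM) and *Tgm2* (17.2, 13 and 7.34 CPM) were lower, beside 8.47% of all genes lower. The median log2 ratios of these genes, -0.11, -0.12 and -0.12 in the 3 populations, lay near those of all genes tested.

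By role, the highest gene over all cells was *Dhrs4* for retinal metabolism (42.1, 30.4 and 29.6 CPM), *Cyp26a1* for the other degrading enzymes (2.67, 6.07 and 5.23 CPM), *Fabp5* for binding (305, 249 and 331 CPM), *Rara* for the other receptors (53.6, 60.7 and 44.9 CPM), *Ncor1* for corepressors and coactivators (151, 134 and 128 CPM) and *Meis2* for known targets (397, 522 and 369 CPM). *Cyp26a1* was under the minimum level in palatal mesenchyme and none of the other 5 was called there. *Cyp26a1*, whose start region carries the same kind of repeat as *Rarb*, was low over all palatal mesenchyme (3.19, 6.89 and 4.66 CPM) and higher in perimysial-gated cells, at 10.8 CPM in control 1 (27 UMIs), 36.1 CPM in control 2 (49) and 12.2 CPM in the mutant (22). Its lower interval bound there, 7.15, 26.7 and 7.62 CPM, lay above the upper bound in palatal mesenchyme, 4.28, 8.26 and 5.43 CPM, in each library. *Meis1*, another known target, was at similar levels in both populations, as given above. The rest of the known targets are not set side by side here, so *Cyp26a1* does not stand for the list.

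The genes most like each of the 9 over the 24 points formed by 12 types and 2 controls were named by Pearson correlation of log2(CPM + 1). For *Aldh1a2* they were *D630033O11Rik* (r = 0.84), *Grin2a* (r = 0.82) and *Rarres2* (r = 0.81). *Rarres2*, a retinoid-responsive gene on the list of known targets, was 33.7, 10.3 and 13.8 CPM in perimysial-gated cells. For *Cyp26b1* they were *Col11a1* (r = 0.97), *Robo2* (r = 0.94) and *Nfix* (r = 0.94), and for *Rarg* *Sulf2* (r = 0.96), *Prr7* (r = 0.96) and *Ext2* (r = 0.93). For *Crabp1* they were *Arfgap1* (r = 0.94), *Gsc* (r = 0.92) and *Cthrc1* (r = 0.91), and for *Crabp2* *Rgma* (r = 0.92), *Serinc2* (r = 0.91) and *Atat1* (r = 0.91). *Rarb* was most like *Npr3* (r = 0.85), *Ppp2r2b* (r = 0.82) and *Ntn1* (r = 0.82), and *Npr3* is also among the 15 genes of the perimysial gate. *Aldh1a1* was most like *Foxj1* (r = 0.89), *Trp73* (r = 0.88) and *Ccno* (r = 0.84). The values were lower for *Dhrs3* (*Ten1* (r = 0.77), *Lgals9* (r = 0.73), *Rnpep* (r = 0.73)) and *Aldh1a3* (*Tusc3* (r = 0.68), *Prokr2* (r = 0.65), *Khnyn* (r = 0.65)). The points share libraries, depth and tissue, and the genes were picked for their r, so these values are descriptions. *Aldh1a1* and *Rarb* overlap genes on the opposite strand, and whether the counting used strand is not given in the sources used here.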

How the data were processed

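Single-cell 3′ v2 libraries of 2 controls and 1 mutant were analysed. Each deposited matrix gives the raw UMI counts of one library by gene and barcode, produced by the authors in Cell Ranger (4.0.0 in the matrix headers, 3.1.0 with build mm10 in the submitters' processing notes), without normalization. The authors' own later merging of the controls is not part of these counts, which sum to 22624711, 27814907 and 63505144.

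A barcode needed 500 detected genes or more and no more than 10% mitochondrial UMIs, and the highest Scrublet scores (scanpy 1.11.5) were left out at 0.8% per 1000 barcodes of a library, 48, 124 and 564 barcodes. Cells were gated by marker UMIs. A class needed 2 markers, 3 UMIs and 3 times the library's mean. A mesenchymal gate needed 2 UMIs and 2 times the mean level of the cells left after the other classes, averaged over the libraries. These gating rules were set after the data were seen, and names can differ from those of the study. UMIs were summed by type and library in Python 3.11.15 (numpy 2.4.6, scipy 1.17.1, pandas 2.3.3), with 3 UMIs in place of 0 on log scales. Intervals are exact 95% Poisson or binomial intervals. The 9 genes, the lists and the alternatives were chosen with earlier results of these data known. The 9 genes were named in types where a library held at least 3 UMIs, or given by their range. The 3 genes most like each of the 9 were named too. Other pathway genes were named if called in palatal mesenchyme or perimysial-gated cells, if called lower in the epithelium, or if highest of their role. One gene that this rule names is not reported here. Alternatives were looser cell filters, doublets kept, a stricter gate, thinning to 2000 UMIs, means over cells, TMM factors (edgeR 4.0.16, R 4.3.3) and leaving out a control. Coordinates are from the GENCODE annotation of GRCm38. Figures were drawn with matplotlib 3.10.9.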

Additional observations from a re-analysis of the deposited data

Results flagged for a closer look

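In each of these results the mutant lay outside both controls in one cell type and on the opposite side of both controls in another. With 1 mutant library the difference between the types was not tested. The share of all genes called was not counted for the osteogenic, midline, *Krt6a*+ and *Krt6a*- gates. Calls in those gates therefore cannot be set against a background. *Crabp1* was lower in osteogenic-gated cells of the mutant (log2 ratio -0.72, 127, 142 and 81.5 CPM, in the order of both controls and then the mutant) and higher in *Krt6a*+ epithelium (1.45, 32.8, 24 and 76.8 CPM), where the mesenchymal gene *Col1a1* was also highest in the mutant (135, 508 and 937 CPM) and its part was not tested. Over all epithelial cells the *Crabp1* ratio turned to -0.26 with thinned cells. *Crabp2* was lower in palatal mesenchyme (-0.61, 181, 133 and 101 CPM) and higher in *Krt6a*- epithelium (0.60, 101, 104 and 155 CPM). *Cyp26b1* was lower in midline-gated cells (-1.36, 13.1, 15.6 and 5.60 CPM) and higher in perimysial-gated cells (0.59, 10.4, 8.10 and 13.8 CPM). The perimysial *Cyp26b1* call was kept in 3 of 8 other settings, its ratio turned to -2.10 with thinned cells and to -0.013 with the mean over cells, both intervals against the controls held 1, and the gene passed the minimum level only through the mutant. It rests on 26, 11 and 25 UMIs, and the osteogenic gate of control 2 held 32 cells.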

How the results depend on the processing

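No paired analysis was possible because the mutant is a single library that shares no pairing with the controls. Of the 9 genes, 3 had the same leading type in all 3 libraries, and 2 to 4 did under the 6 alternatives that kept both controls; without one control the count was 5 to 6, since fewer libraries had to match. The mean log2 ratio of *Aldh1a2* in perimysial-gated against other mesenchymal cells of the controls was 3.0, from 2.57 to 3.1 under the 6 alternatives and from 2.25 to 3.75 with 1 control left out. The number of the 9 genes called between genotypes in palatal mesenchyme was 1. It was 2 with cells thinned to 2000 UMIs (*Crabp1* higher, *Cyp26b1* lower), 2 with the mean over cells, 0 with TMM factors, 4 without the minimum level (*Aldh1a1* and *Crabp2* lower, *Aldh1a3* and *Rarb* higher, genes with at most 3 UMIs in every library left out), and 1 to 2 with a control left out. Without the minimum level 3175 of 17578 genes were called in either direction. With TMM factors 248 genes were higher and 203 lower, in place of 138 and 366. The shares of all genes called in the other settings are not given here, so these counts are not results about the 9 genes as a group.

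Of 216 recomputed log2 ratios of mutant to controls, covering 27 results, 196 kept their sign. The direction of a called ratio turned in 4, which were *Cyp26b1* (-2.10), *Rarb* (-0.15) in perimysial-gated cells and *Crabp1* (-0.26) in epithelium with cells thinned to 2000 UMIs, and *Cyp26b1* (-0.013) in perimysial-gated cells with the mean over cells. The cause was not tested. *Aldh1a1* in epithelium stayed lower in 8 of 8 settings (-2.29 to -1.80) and was not called with thinned cells. The log2 difference in *Crabp1* per *Crabp2* (0.94 to 1.11) and in *Aldh1a2* per *Cyp26b1* in *Tfap2b*/*Eya4*-gated cells (3.72, from 1.74 to 4.15) kept its sign in 8 of 8 settings; both were added after the data were seen. Setting the minimum level on the controls alone, and the settings for the other pathway genes, were also added then; the first left 1 of the 9 genes called in perimysial-gated cells in place of 2. *Aldh1a1*, *Aldh1a3* and *Rarb* had a mean under 10 CPM in palatal mesenchyme. The gates for *Scx* and bone held as few as 28 and 32 cells in a control.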
